A study of Mus musculus with 10 samples.

Results

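The vascular endothelial growth factor (VEGF) system was examined through 10 genes, comprising the ligand genes Vegfa, Vegfb, Vegfc, Figf and Pgf, the receptor genes Flt1, Kdr and Flt4, and the co-receptor genes Nrp1 and Nrp2. They were taken by name from the 23284 gene symbols of the count table, and each of the 10 passed the filter on low counts that left 15330 genes for testing. Figf is the older symbol for the gene of VEGF-D, and Flt1, Kdr and Flt4 encode VEGFR-1, VEGFR-2 and VEGFR-3. RNA was sequenced from 3 endothelial populations of C57BL/6 mice aged 6 to 8 weeks, namely the lymphatic (LN-LEC, 4 libraries) and the blood (LN-BEC, 3 libraries) endothelial cells of pooled lymph nodes, and the lymphatic endothelial cells of diaphragm (D-LEC, 3 libraries). The labels give no treatment and no engineered allele for any group. Inguinal, axillary, brachial, cervical and mesenteric nodes were combined, CD45-positive cells were removed on magnetic beads, and the CD31-positive remainder was sorted into LEC, which carry podoplanin (PDPN), and BEC, which do not. Each library was a pool of several mice, so that the spread between libraries describes pools and not single animals.

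VEGF ligands are secreted dimers that bind receptor tyrosine kinases on endothelial cells. VEGF-A binds VEGFR-1 and VEGFR-2, VEGF-B and placental growth factor (PlGF, encoded by Pgf) bind VEGFR-1, and VEGF-C and VEGF-D bind VEGFR-3. VEGF-C also binds VEGFR-2 after proteolytic processing, as human but not mouse VEGF-D does. VEGFR-2 carries most of the mitogenic and permeability signal in blood vessels, VEGFR-1 binds VEGF-A tightly with weak kinase activity and also exists as a soluble decoy, and VEGFR-3 drives lymphatic growth. Neuropilins are co-receptors shared with class 3 semaphorins, with NRP1 best known in blood vessels and NRP2 in lymphatic vessels. The comparisons ask how lymphatic endothelium of the node differs in these transcripts from lymphatic endothelium of another tissue and from the blood endothelium beside it.

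The 10 libraries held between 22429940 and 48906070 counted fragments. Levels are given as FPKM, counted fragments scaled by exon length and by library size with TMM factors, so that genes can be set side by side per length, and differences are given as log2 fold changes with their standard error (SE) from edgeR. The labelled cell types had their markers. Pdpn among them encodes the protein used for the sort, so its pattern is no independent check of the labels. The 5 LEC markers (Prox1, Pdpn, Lyve1, Reln and Mmrn1) summed to 1343 to 1537 FPKM in LN-LEC, 4827 to 5190 FPKM in D-LEC and 14.7 to 85.0 FPKM in LN-BEC, and the 9 BEC markers (Vwf, Notch4, Emcn, Cd34, Plvap, Sox17, Ly6c1, Selp and Sele) to 2174 to 2539 FPKM in LN-BEC, 286 to 340 FPKM in LN-LEC and 215 to 258 FPKM in D-LEC. Most of the BEC marker sum was Plvap in LN-LEC (mean 279 FPKM), and Emcn and Plvap in D-LEC (means 141 and 61.4 FPKM). A pair of libraries stood apart: LN-BEC replicate 3 held the most LEC marker transcript among the LN-BEC (85.0 against 14.7 and 28.0 FPKM), and LN-LEC replicate 4 had the highest summed level of 10 dissociation-response genes among the LN-LEC (906 against 337 to 446 FPKM). With both left out, every call on the 10 genes was unchanged except those of Figf and Pgf between LN-LEC and LN-BEC, given with those genes. In these bulk libraries fewer cells of a type and less RNA per cell cannot be told apart.

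The 3 receptor genes had 3 different patterns. Flt1 was a blood endothelial transcript, Flt4 was highest in D-LEC, intermediate in LN-LEC and lowest in LN-BEC, and Kdr was at a similar level in both node populations and somewhat lower in D-LEC. The promoters of these receptor genes are shown because the genes differ so much in pattern while 2 of them lie on the same chromosome. Each runs from 250 bases before to 50 bases after the most upstream annotated exon start, in the mm9 build used for the counts, and reads 5′ to 3′ on the strand of the gene. The windows are chr5:148537515-148537814 (minus strand) for Flt1, chr5:76374404-76374703 (minus strand) for Kdr and chr11:49422931-49423230 (plus strand) for Flt4. Capitals mark the reverse complement of CCGGAA, a longer form of the Ets factor core GGAA. GGAA alone was not searched for or marked, and it also stands in the Flt1 and Flt4 windows.
Flt1: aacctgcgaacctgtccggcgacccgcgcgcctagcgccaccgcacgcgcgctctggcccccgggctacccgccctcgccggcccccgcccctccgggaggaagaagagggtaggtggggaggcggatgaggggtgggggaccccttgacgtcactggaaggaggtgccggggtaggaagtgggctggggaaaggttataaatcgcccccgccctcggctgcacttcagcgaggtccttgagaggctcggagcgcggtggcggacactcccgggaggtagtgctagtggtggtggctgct
Kdr: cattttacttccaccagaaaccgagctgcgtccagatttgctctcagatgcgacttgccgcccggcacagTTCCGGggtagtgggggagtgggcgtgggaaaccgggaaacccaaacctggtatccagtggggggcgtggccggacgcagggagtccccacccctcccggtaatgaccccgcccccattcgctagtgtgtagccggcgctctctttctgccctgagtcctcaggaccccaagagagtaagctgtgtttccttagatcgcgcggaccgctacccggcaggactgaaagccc
Flt4: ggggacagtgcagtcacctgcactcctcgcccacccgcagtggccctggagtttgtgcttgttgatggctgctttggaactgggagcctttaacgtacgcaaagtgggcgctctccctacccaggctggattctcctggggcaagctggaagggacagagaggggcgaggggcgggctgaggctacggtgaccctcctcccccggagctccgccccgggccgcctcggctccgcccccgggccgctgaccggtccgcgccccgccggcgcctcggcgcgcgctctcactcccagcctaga
The 3 windows had a GC content of 70.3% for Flt1, 62.3% for Kdr and 70.3% for Flt4. CCGGAA, searched on both strands, occurred once among the 10 genes' windows, on the reverse strand in Kdr with its first base 180 bases before the start, and was present in 23.0% of the 15316 promoters of tested genes. ACGTG, one form of the core of the hypoxia-inducible factor site, occurred in 23.3% of those promoters and AACAAT, a Sox factor core, in 6.40%. Neither was found in the window of any of the 10 genes. A match is a match of letters only, and its absence here says nothing on binding elsewhere.

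Flt1 (chromosome 5, 148373772 to 148537564, minus strand) encodes VEGFR-1. Its level was 77.2, 79.3 and 70.6 FPKM in the LN-BEC libraries, 1.11, 0.878, 0.786 and 1.33 FPKM in the LN-LEC libraries and 0.199, 0.297 and 0.448 FPKM in the D-LEC libraries. No library of any population overlapped those of another. The mean of 75.7 ± 4.56 FPKM (SD, n = 3) in LN-BEC was 72.8-fold that of LN-LEC (1.03 ± 0.246 FPKM, n = 4), a log2 fold change (LN-LEC minus LN-BEC) of −6.19 with an SE of 0.24 and an adjusted p of 6.1e-09 by edgeR's quasi-likelihood test. Against D-LEC (0.315 ± 0.125 FPKM, n = 3) the difference was 234-fold (adjusted p = 3.2e-09). Between the lymphatic populations, Flt1 was 3.22-fold higher in LN-LEC than D-LEC (adjusted p = 2.5e-04), on 133 to 406 counts against 31 to 105. BEC markers were also detected in the lymphatic libraries. LN-LEC held 1.36% ± 0.33 (SD, n = 4) of the LN-BEC level of Flt1, and among the 9 BEC markers the same share ran from 1.05% for Sox17 and 1.20% for Ly6c1 to 45.1% for Plvap. D-LEC held 0.416% ± 0.166 (n = 3) of the LN-BEC level of Flt1, beside 0.158% for Ly6c1, 0.484% for Sox17 and 36.8% for Emcn. The study used Flt1 and Nrp1 as BEC markers themselves, and the lists here leave them out. The part of other cells in the low Flt1 of the lymphatic libraries was not tested. Counts per gene do not separate the membrane form of VEGFR-1 from the soluble form.

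Kdr (chromosome 5, 76329299 to 76374453, minus strand) encodes VEGFR-2 and was among the more abundant transcripts of all 3 populations, above 94.2% to 96.2% of the tested genes by mean FPKM. The libraries gave 111, 94.5, 110 and 94.0 FPKM in LN-LEC, 110, 104 and 95.2 FPKM in LN-BEC and 59.3, 80.1 and 76.4 FPKM in D-LEC. The node populations overlapped, while every D-LEC library was below every library of the node. LN-LEC (102 ± 9.38 FPKM, n = 4) and LN-BEC (103 ± 7.42 FPKM, n = 3) did not differ by the test (log2 fold change −0.01, 95% interval −0.25 to 0.24, adjusted p = 0.97). D-LEC (71.9 ± 11.1 FPKM, n = 3) was 1.43-fold lower than LN-LEC (log2 fold change 0.51, SE 0.12, adjusted p = 0.0024) and 1.43-fold lower than LN-BEC (adjusted p = 0.0030).

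Flt4 (chromosome 11, 49423181 to 49466241, plus strand) encodes VEGFR-3. Its level was 510, 437 and 409 FPKM in the D-LEC libraries, 89.9, 89.3, 97.6 and 86.9 FPKM in the LN-LEC libraries and 13.1, 10.7 and 14.97 FPKM in the LN-BEC libraries. The populations were separated without overlap. In D-LEC it ranked 100 among the 15330 tested genes by mean FPKM, the highest place of any of the 10 genes in any population. D-LEC (452 ± 52.0 FPKM, n = 3) exceeded LN-LEC (90.9 ± 4.62 FPKM, n = 4) 4.96-fold (log2 fold change LN-LEC minus D-LEC −2.31, SE 0.12, adjusted p = 2.4e-09). LN-LEC exceeded LN-BEC (12.9 ± 2.12 FPKM, n = 3) 7.05-fold (log2 fold change 2.82, SE 0.13, adjusted p = 1.2e-09), and D-LEC exceeded LN-BEC 34.9-fold (adjusted p = 1.5e-11).

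Flt4 in LN-BEC can be set beside 5 LEC markers, with either lymphatic population as the reference. LN-LEC were sorted from pooled lymph nodes, as LN-BEC were, and D-LEC from diaphragm. LN-BEC held 14.2% ± 2.34 (SD, n = 3) of the LN-LEC level of Flt4, while the means of the 5 LEC markers were 2.51% (Reln) to 3.37% (Mmrn1). In LN-BEC replicate 2, which had the least LEC marker transcript, Flt4 stood at 11.8% of the LN-LEC mean and the 5 markers at 0.936% to 1.41%. In LN-BEC replicate 3, which had the most, Flt4 stood at 16.5% and the markers at 4.27% to 6.60%. Against the D-LEC mean, Flt4 in LN-BEC stood at 2.86% ± 0.470, close to Prox1 at 2.83% ± 1.48, and the other 4 markers at 0.0893% (Reln) to 1.03% (Lyve1). In LN-BEC replicate 3 Prox1, at 4.40% of D-LEC, was above Flt4, at 3.31%. The part of LEC transcripts in the Flt4 of LN-BEC was not tested. Flt4 in LN-BEC rested on 2227 to 2696 counts per library. Without LN-BEC replicate 3 and LN-LEC replicate 4 the difference between LN-LEC and LN-BEC was a log2 fold change of 2.96, against 2.82 with all libraries.

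**Figure D1:**
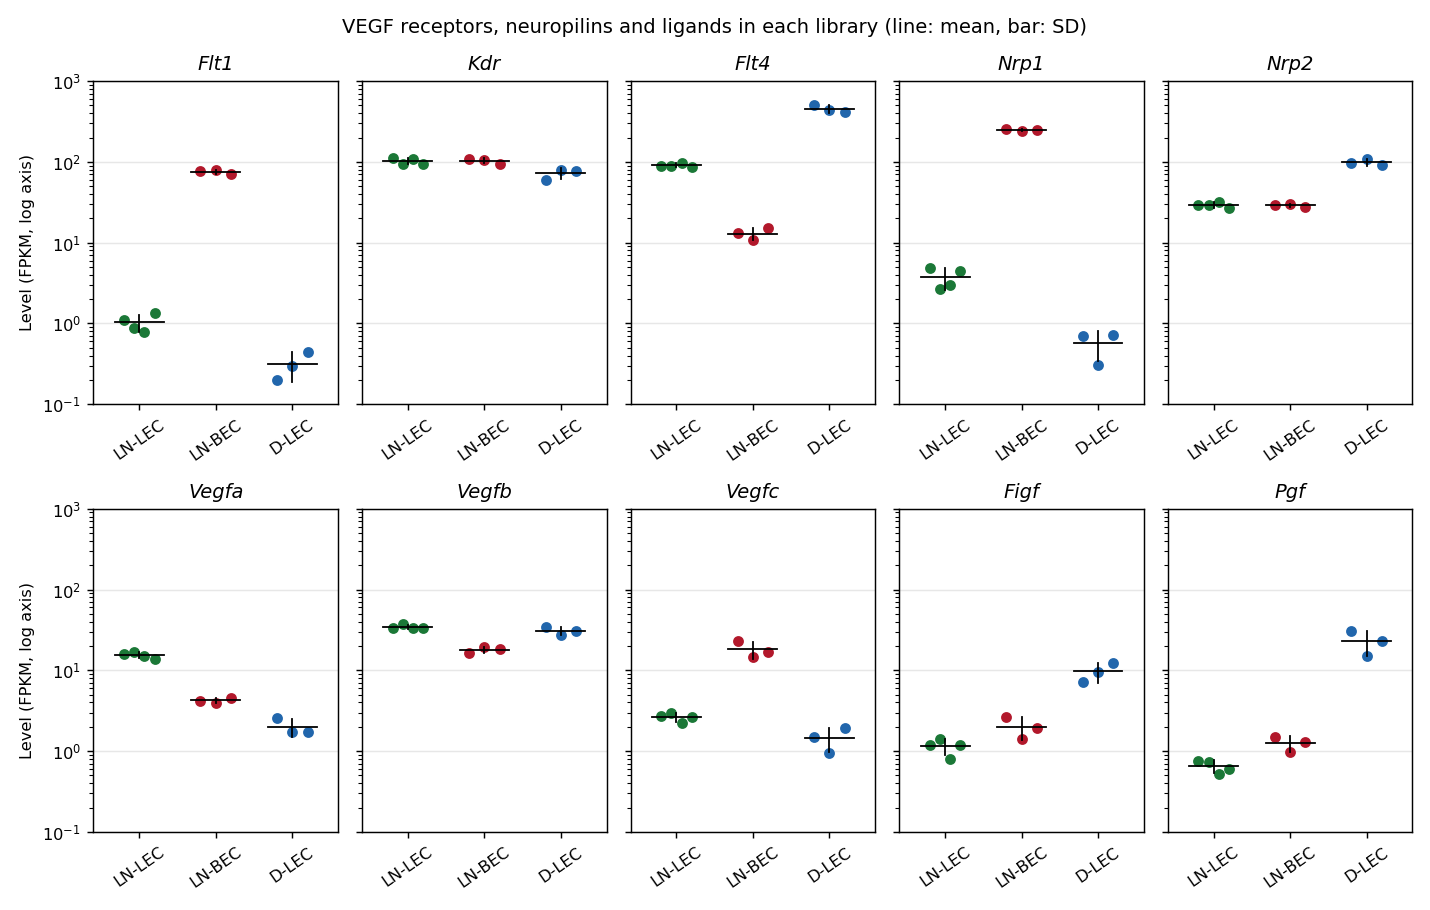
FPKM on a log axis of the 10 genes in each of the 10 libraries, with 1 panel per gene, 1 point per library, a line at the mean and a bar of 1 SD. Flt1 and Nrp1 were at 70.6 FPKM or more in every LN-BEC library and at 4.90 FPKM or less in every lymphatic library, Flt4 and Nrp2 were highest in D-LEC, and Kdr lay between 59.3 and 111 FPKM in all libraries.

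Within the receptor family, the lymph node populations carried nearly the same summed level from different genes. Flt1, Kdr and Flt4 together came to 194 ± 12.8 FPKM in LN-LEC (n = 4) and 192 ± 9.99 FPKM in LN-BEC (n = 3), but to 524 ± 42.1 FPKM in D-LEC (n = 3). Kdr made up 52.6% ± 1.70 of that sum in LN-LEC and 53.7% ± 1.11 in LN-BEC. The rest was Flt4 in LN-LEC (46.9% ± 1.68) and mostly Flt1 in LN-BEC (39.5% ± 1.20), where Flt4 gave 6.78% ± 1.39. In D-LEC Flt4 alone made up 86.1% ± 3.02 and Kdr 13.9% ± 3.00.

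The ratio of Flt4 to Kdr within a library does not depend on scaling between libraries. It was 0.810, 0.945, 0.888 and 0.925 in LN-LEC, 0.120, 0.104 and 0.158 in LN-BEC and 8.58, 5.45 and 5.35 in D-LEC. LN-LEC thus had nearly equal levels of both transcripts per length, LN-BEC had an excess of Kdr and D-LEC an excess of Flt4, without overlap between populations. The log2 ratio differed by 2.83 between LN-LEC and LN-BEC, by −2.82 between LN-LEC and D-LEC and by 5.65 between D-LEC and LN-BEC. In an exact two-sided permutation test these gave p = 0.0571, 0.0571 and 0.1, the smallest values that 4 against 3 and 3 against 3 libraries allow, or 0.0857, 0.0857 and 0.1 after adjustment over 15 ratio comparisons, so that no ratio here could pass 0.05.

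The neuropilins differed from each other in pattern. Nrp1 (chromosome 8, 130882973 to 131029375, plus strand) encodes a co-receptor that binds VEGF-A with VEGFR-2 and semaphorins with plexins, and it was a blood endothelial transcript in these data. Its level was 258, 244 and 249 FPKM in the LN-BEC libraries, 4.90, 2.64, 2.96 and 4.41 FPKM in the LN-LEC libraries and 0.709, 0.309 and 0.720 FPKM in the D-LEC libraries. The LN-BEC libraries varied little and no populations overlapped. Nrp1 ranked 202 of 15330 genes in LN-BEC. The level in LN-BEC was 66.9-fold that in LN-LEC (log2 fold change LN-LEC minus LN-BEC −6.06, SE 0.32, adjusted p = 3.8e-07) and 432-fold that in D-LEC (adjusted p = 1.2e-07). LN-LEC exceeded D-LEC 6.45-fold (log2 fold change 2.69, SE 0.33, adjusted p = 1.1e-04), on 377 to 1265 counts against 56 to 159. As a share of the LN-BEC mean, Nrp1 was 1.49% ± 0.44 (n = 4) in LN-LEC and 0.232% ± 0.094 (n = 3) in D-LEC, beside the shares of BEC markers given with Flt1, and their part was again not tested. The exons of Nrp1 share 80 bases, 1.35% of their length, with the microRNA gene Mir1903, and no exon base of the other 9 genes is annotated to a second gene.

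Nrp2 (chromosome 1, 62749891 to 62865266, plus strand) encodes the co-receptor that joins VEGFR-3 in VEGF-C and VEGF-D signalling. The libraries gave 96.0, 108 and 91.2 FPKM in D-LEC, 29.5, 29.0, 32.1 and 26.5 FPKM in LN-LEC and 29.2, 30.0 and 27.9 FPKM in LN-BEC. D-LEC was above both node populations, and those overlapped. LN-LEC (29.3 ± 2.27 FPKM, n = 4) and LN-BEC (29.0 ± 1.07 FPKM, n = 3) did not differ by the test (log2 fold change 0.02, 95% interval −0.18 to 0.21, adjusted p = 0.92). D-LEC (98.4 ± 8.71 FPKM, n = 3) exceeded LN-LEC 3.36-fold (log2 fold change LN-LEC minus D-LEC −1.75, SE 0.09, adjusted p = 2.6e-09) and LN-BEC 3.39-fold (adjusted p = 4.6e-09). The Nrp2 of LN-BEC stood at 99.1% of the LN-LEC mean, beside 2.51% to 3.37% for the 5 LEC markers. Against the D-LEC mean it stood at 29.5%, beside 0.0893% to 2.83% for these markers. The part of LEC transcripts in the Nrp2 of LN-BEC was not tested.

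Summed over both neuropilins, LN-BEC carried 279 ± 6.64 FPKM (n = 3), D-LEC 99.0 ± 8.49 FPKM (n = 3) and LN-LEC 33.01 ± 2.0002 FPKM (n = 4). Nrp1 was 89.6% ± 0.48 of that sum in LN-BEC, 11.3% ± 3.39 in LN-LEC and 0.600% ± 0.274 in D-LEC. After 0.1 FPKM was added to both levels, the ratio of Nrp2 to Nrp1 was 0.114, 0.123 and 0.112 in LN-BEC, 5.91, 10.6, 10.5 and 5.91 in LN-LEC and 119, 265 and 111 in D-LEC. The populations did not overlap in this ratio, and each difference in the log2 ratio (6.09 for LN-LEC minus LN-BEC, −4.26 for LN-LEC minus D-LEC, 10.4 for D-LEC minus LN-BEC) had the smallest p its exact permutation test allows, 0.0571 for the comparisons of 4 with 3 libraries and 0.1 for the comparison of 3 with 3. The ratios in D-LEC depend on the added constant, since Nrp1 was at 0.309 to 0.720 FPKM there, and with 1 FPKM added in its place the last 2 differences were −3.28 and 9.05.

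**Figure D2:**
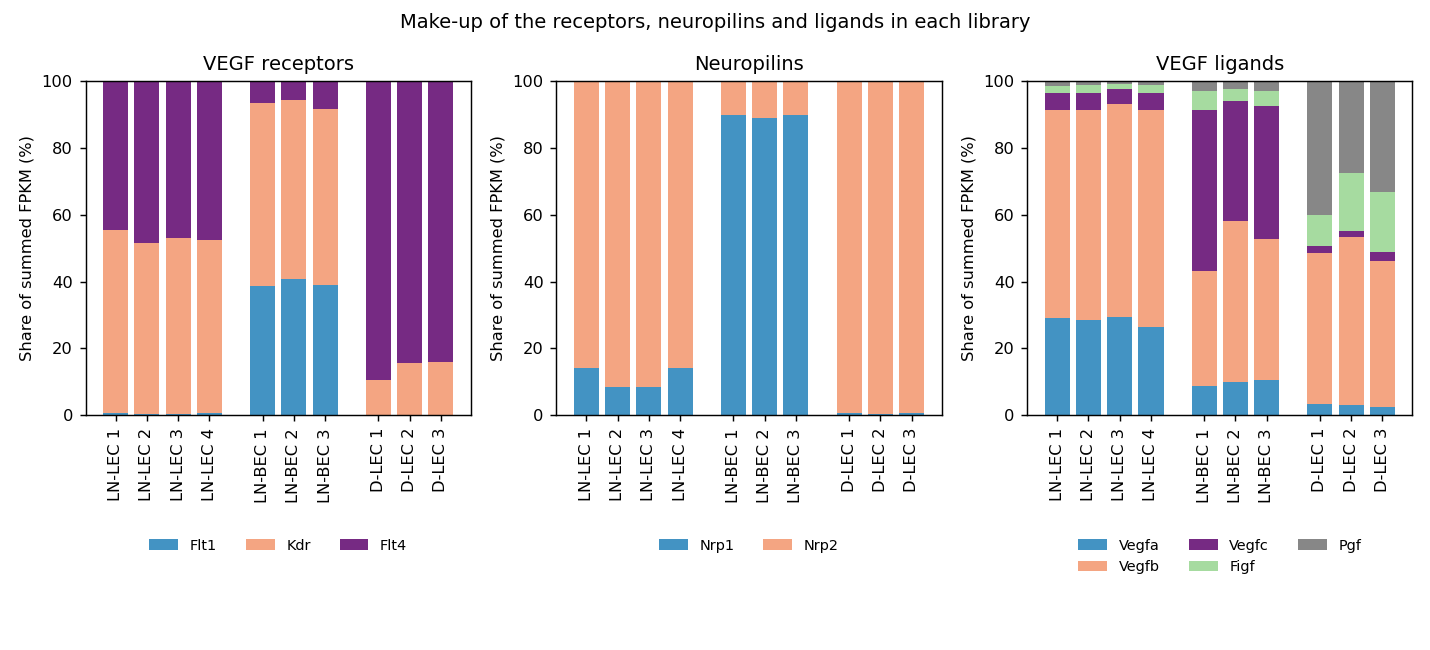
Share (%) of the summed FPKM of the 3 receptor genes, the neuropilins and the 5 ligand genes that each gene contributed, with 1 stacked bar per library. Kdr gave between 51.2% and 54.9% of receptor transcript in every library of the node, while Flt4 gave 84.2% to 89.5% in the D-LEC libraries and Nrp1 89.1% to 89.9% of neuropilin transcript in the LN-BEC libraries.

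The ligand transcripts differed in the population where they were highest. Vegfa was highest in LN-LEC, Vegfc in LN-BEC, and Figf and Pgf in D-LEC, while Vegfb was the most abundant ligand transcript of the lymphatic populations and about as abundant as Vegfc in LN-BEC.

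Vegfa (chromosome 17, 46153943 to 46169326, minus strand) encodes VEGF-A, the ligand of VEGFR-1 and VEGFR-2. Its level was 15.7, 16.9, 15.2 and 13.8 FPKM in the LN-LEC libraries, 4.16, 3.99 and 4.59 FPKM in the LN-BEC libraries and 2.58, 1.71 and 1.75 FPKM in the D-LEC libraries. All 3 populations were separated. LN-LEC (15.4 ± 1.28 FPKM, n = 4) exceeded LN-BEC (4.25 ± 0.312 FPKM, n = 3) 3.63-fold (log2 fold change 1.86, SE 0.14, adjusted p = 1.1e-07) and D-LEC (2.01 ± 0.494 FPKM, n = 3) 7.71-fold (log2 fold change 2.95, SE 0.15, adjusted p = 1.9e-09). D-LEC was 2.12-fold lower than LN-BEC (adjusted p = 3.3e-05).

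Vegfb (chromosome 19, 7056962 to 7062141, minus strand) encodes a ligand of VEGFR-1 and NRP1. It was measured at 33.5, 37.2, 33.1 and 33.8 FPKM in LN-LEC, 34.2, 27.5 and 30.4 FPKM in D-LEC and 16.5, 19.5 and 18.1 FPKM in LN-BEC. Both lymphatic populations were above every LN-BEC library and overlapped each other. LN-LEC (34.4 ± 1.89 FPKM, n = 4) was 1.91-fold (log2 fold change 0.93, SE 0.10, adjusted p = 4.1e-06) and D-LEC (30.7 ± 3.35 FPKM, n = 3) 1.70-fold (adjusted p = 3.5e-05) above LN-BEC (18.0 ± 1.50 FPKM, n = 3). Between LN-LEC and D-LEC the test found no difference (log2 fold change 0.17, 95% interval −0.04 to 0.38, adjusted p = 0.17).

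Vegfc (chromosome 8, 55162886 to 55271808, plus strand) encodes VEGF-C, the main ligand of VEGFR-3. The LN-BEC libraries had 23.2, 14.5 and 17.0 FPKM, the LN-LEC libraries 2.73, 3.00, 2.21 and 2.68 FPKM and the D-LEC libraries 1.50, 0.956 and 1.91 FPKM. The blood endothelial libraries were high and the lymphatic ones low, with LN-LEC just above D-LEC. LN-BEC (18.2 ± 4.48 FPKM, n = 3) exceeded LN-LEC (2.65 ± 0.327 FPKM, n = 4) 6.86-fold (log2 fold change LN-LEC minus LN-BEC −2.78, SE 0.21, adjusted p = 2.9e-07) and D-LEC (1.46 ± 0.478 FPKM, n = 3) 12.4-fold (adjusted p = 6.9e-08). LN-LEC exceeded D-LEC 1.81-fold (log2 fold change 0.86, SE 0.23, adjusted p = 0.0085). Vegfc in LN-LEC was 14.6% ± 1.80 of the LN-BEC mean (n = 4), between the shares of BEC markers such as Vwf (2.02%) and Selp (13.9%) on the lower side and Sele (27.4%) and Plvap (45.1%) on the upper side.

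Figf (chromosome X, 160811480 to 160840579, plus strand) encodes VEGF-D, a ligand of VEGFR-3. The D-LEC libraries had 7.19, 9.41 and 12.5 FPKM, the LN-BEC libraries 2.66, 1.43 and 1.93 FPKM and the LN-LEC libraries 1.20, 1.41, 0.791 and 1.20 FPKM. The D-LEC libraries were all above those of the node, and the lowest LN-BEC library lay just above the highest LN-LEC library. D-LEC (9.69 ± 2.66 FPKM, n = 3) exceeded LN-LEC (1.15 ± 0.260 FPKM, n = 4) 8.41-fold (log2 fold change LN-LEC minus D-LEC −3.07, SE 0.25, adjusted p = 3.7e-07) and LN-BEC (2.003 ± 0.620 FPKM, n = 3) 4.84-fold (adjusted p = 1.0e-05). The 1.74-fold excess of LN-BEC over LN-LEC (log2 fold change −0.80, SE 0.26, adjusted p = 0.026), on 95 to 176 counts against 40 to 109, was lost without LN-BEC replicate 1 (−0.53, adjusted p = 0.15), without LN-LEC replicate 3 (−0.66, adjusted p = 0.069) and without both libraries that stood apart (−0.85, adjusted p = 0.076), the adjusted p running from 0.0090 to 0.15 over 16 alternatives.

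Pgf (chromosome 12, 86507591 to 86518235, minus strand) encodes PlGF, a ligand of VEGFR-1. It was measured at 30.3, 15.04 and 23.3 FPKM in D-LEC, 1.50, 0.969 and 1.30 FPKM in LN-BEC and 0.757, 0.740, 0.520 and 0.605 FPKM in LN-LEC. Even the lowest D-LEC library was far above any of the node. D-LEC (22.9 ± 7.63 FPKM, n = 3) exceeded LN-LEC (0.655 ± 0.113 FPKM, n = 4) 35-fold (log2 fold change LN-LEC minus D-LEC −5.13, SE 0.25, adjusted p = 4.3e-09) and LN-BEC (1.26 ± 0.268 FPKM, n = 3) 18.1-fold (adjusted p = 3.4e-08). LN-BEC exceeded LN-LEC 1.93-fold (log2 fold change −0.95, SE 0.27, adjusted p = 0.015), on 54 to 83 counts against 22 to 46. That call was lost without LN-BEC replicate 1 (−0.79, adjusted p = 0.075), without LN-LEC replicate 4 (−0.90, adjusted p = 0.0501) and without both libraries that stood apart (−0.88, adjusted p = 0.12), with the adjusted p between 0.0022 and 0.12 over 16 alternatives.

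Some transcripts of other cell types were also higher in D-LEC. All 12 skeletal muscle markers were called higher in D-LEC than LN-LEC and LN-BEC, with summed levels of 36.0, 55.0 and 62.3 FPKM in the D-LEC libraries against 1.68 to 2.58 FPKM in LN-LEC and 4.20 to 4.93 FPKM in LN-BEC. Of 7 mesothelial markers 6 were called higher in D-LEC in both comparisons, with sums of 32.5, 12.8 and 38.3 FPKM against 1.67 to 8.12 FPKM and 2.69 to 20.4 FPKM. None of the 6 fibroblast markers was called in any comparison, and their sums overlapped (100.1, 36.3 and 68.1 FPKM in the D-LEC libraries, 56.2 to 96.9 in LN-LEC, 24.3 to 98.5 in LN-BEC). The sum of 10 macrophage and dendritic cell markers was 21.7 to 35.2 FPKM in D-LEC against 10.4 to 15.4 FPKM in LN-LEC, and 2 of them were called higher in D-LEC and 1 in LN-LEC. Those higher in D-LEC were Cd68 (14.5 against 4.69 FPKM) and Cd14 (7.04 against 1.71 FPKM), the one higher in LN-LEC was Ptprc, and Itgam, Itgax and Emr1 had at most 5 counts in any D-LEC library. The 10 dissociation-response genes were all called higher in D-LEC than LN-LEC, with sums of 2438 to 2871 against 337 to 906 FPKM. The part of these cells and of that response in the levels of Figf, Pgf and the other genes was not tested.

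Transcripts of other cells also differed between the node populations. The sum of 8 mural cell markers was 93.3 to 116 FPKM in LN-BEC, 62.8 to 99.1 FPKM in LN-LEC and 13.2 to 18.9 FPKM in D-LEC, and 5 of them were called higher in LN-BEC than LN-LEC and 1 lower, with a median log2 fold change (LN-LEC minus LN-BEC) of −1.90. Most of the node sums was Rgs5, which was not called (78.8 FPKM in LN-BEC and 69.8 FPKM in LN-LEC), while Acta2 was at 15.9 against 3.92 FPKM and Notch3 at 2.04 against 0.361 FPKM. For 10 B and T cell markers the sums were 17.9 to 28.0 FPKM in LN-BEC, 9.61 to 13.6 FPKM in LN-LEC and 0.512 to 1.70 FPKM in D-LEC. Of the LN-LEC sum most was Cd79b, which was not called between the node populations (10.02 FPKM in LN-LEC and 9.86 FPKM in LN-BEC), and 8 of the 10 markers were called higher in LN-BEC than LN-LEC, with a median log2 fold change (LN-LEC minus LN-BEC) of −2.99. The 10 dissociation-response genes summed to 917 to 1722 FPKM in LN-BEC and 337 to 906 FPKM in LN-LEC, and 4 were called higher in LN-BEC. LN-BEC replicate 3 had the highest of these sums. The part of these cells and of that response in the differences of Vegfa, Vegfc, Flt1 and Nrp1 was not tested.

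Added over the 5 ligand genes, transcript came to 54.2 ± 3.44 FPKM in LN-LEC (n = 4), 43.8 ± 3.89 FPKM in LN-BEC (n = 3) and 66.7 ± 10.9 FPKM in D-LEC (n = 3). The make-up differed more than the sum. In LN-LEC, Vegfb and Vegfa gave 63.4% ± 1.20 and 28.4% ± 1.30, and the other 3 ligands together the small remainder. In LN-BEC, Vegfb (41.6% ± 6.999) and Vegfc (41.2% ± 6.38) were level, with Vegfa at 9.75% ± 1.01. In D-LEC, Vegfb gave 46.3% ± 3.56, Pgf 33.6% ± 6.23 and Figf 14.9% ± 4.67, with Vegfa at 3.01% ± 0.46.

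Ratios of ligands within libraries separated all populations. Vegfc to Vegfa was 0.179, 0.182, 0.151 and 0.200 in LN-LEC, 0.597, 0.584 and 1.09 in D-LEC and 5.46, 3.56 and 3.65 in LN-BEC, a difference in log2 ratio of −4.55 for LN-LEC minus LN-BEC and −2.03 for LN-LEC minus D-LEC. Vegfb to Vegfa was 2.12, 2.20, 2.17 and 2.44 in LN-LEC, 3.90, 4.80 and 3.88 in LN-BEC and 12.8, 15.3 and 16.5 in D-LEC, a difference of −0.90 for LN-LEC minus LN-BEC and −2.73 for LN-LEC minus D-LEC. Every one of these 4 differences had p = 0.0571 in an exact two-sided permutation test, the smallest it can give, or 0.0857 after adjustment over the 15 ratio comparisons.

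In the comparison of LN-LEC with D-LEC, 5 of the 10 genes were called higher in LN-LEC (Vegfa, Vegfc, Flt1, Kdr and Nrp1), 4 higher in D-LEC (Figf, Pgf, Flt4 and Nrp2) and 1 was not called (Vegfb). Among all 15330 tested genes, 45.8% were called, 24.1% toward LN-LEC and 21.7% toward D-LEC. In the comparison of LN-LEC with LN-BEC, 3 were higher in LN-LEC (Vegfa, Vegfb and Flt4), 5 higher in LN-BEC (Vegfc, Figf, Pgf, Flt1 and Nrp1) and 2 not called (Kdr and Nrp2), with 38.2% of all tested genes called, 19.8% toward LN-LEC and 18.4% toward LN-BEC. Between D-LEC and LN-BEC all 10 were called, 5 higher in each (Vegfb, Figf, Pgf, Flt4 and Nrp2 in D-LEC), with 48.1% of all tested genes called, 22.5% toward D-LEC and 25.6% toward LN-BEC. The medians of the 10 log2 fold changes were 0.34, −0.40 and 0.12 in the 3 comparisons in this order, beside 0.03, −0.01 and −0.05 over all tested genes. The comparisons share libraries, so that their counts are not independent.

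**Figure D3:**
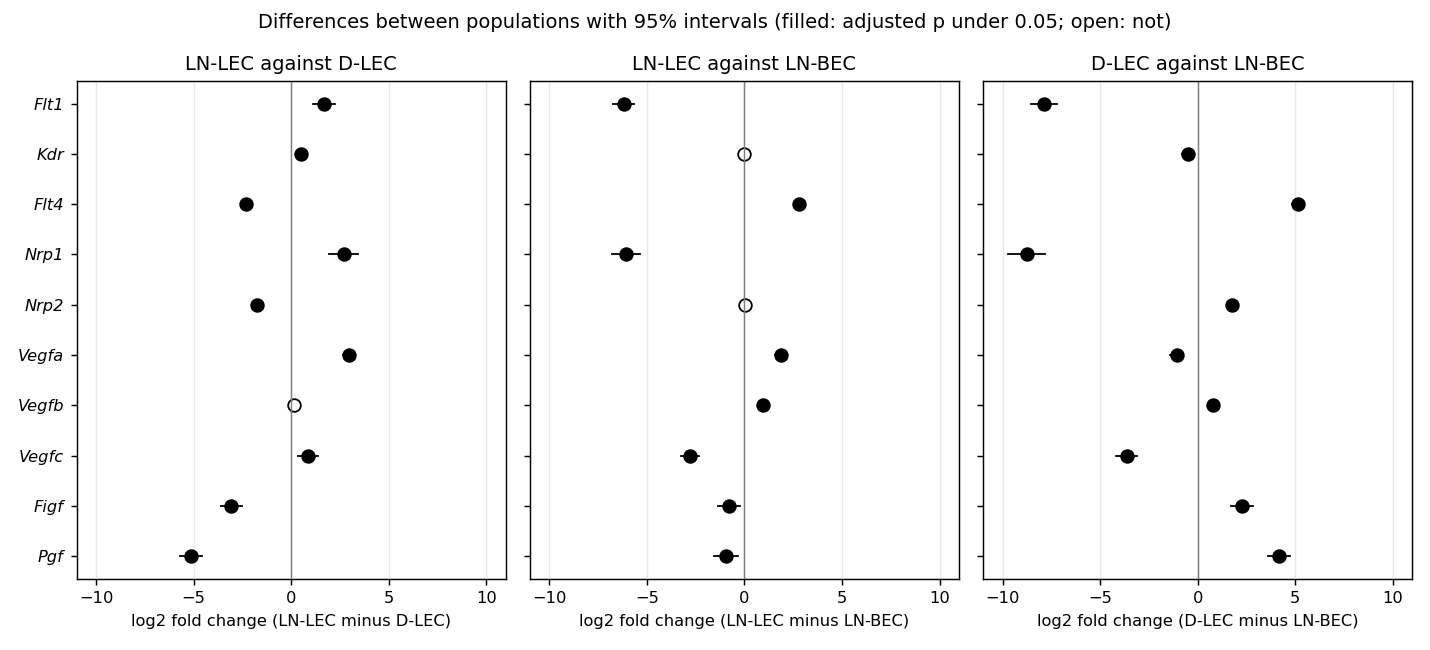
Log2 fold change of the 10 genes in the 3 comparisons, with 95% intervals as bars, filled points for an adjusted p under 0.05 and open points otherwise. Flt1 and Nrp1 lie furthest below 0 in both comparisons with LN-BEC (−6.19 and −6.06 for LN-LEC, −7.87 and −8.75 for D-LEC), and the 3 open points are Vegfb between LN-LEC and D-LEC and Kdr and Nrp2 between LN-LEC and LN-BEC.

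**Figure D4:**
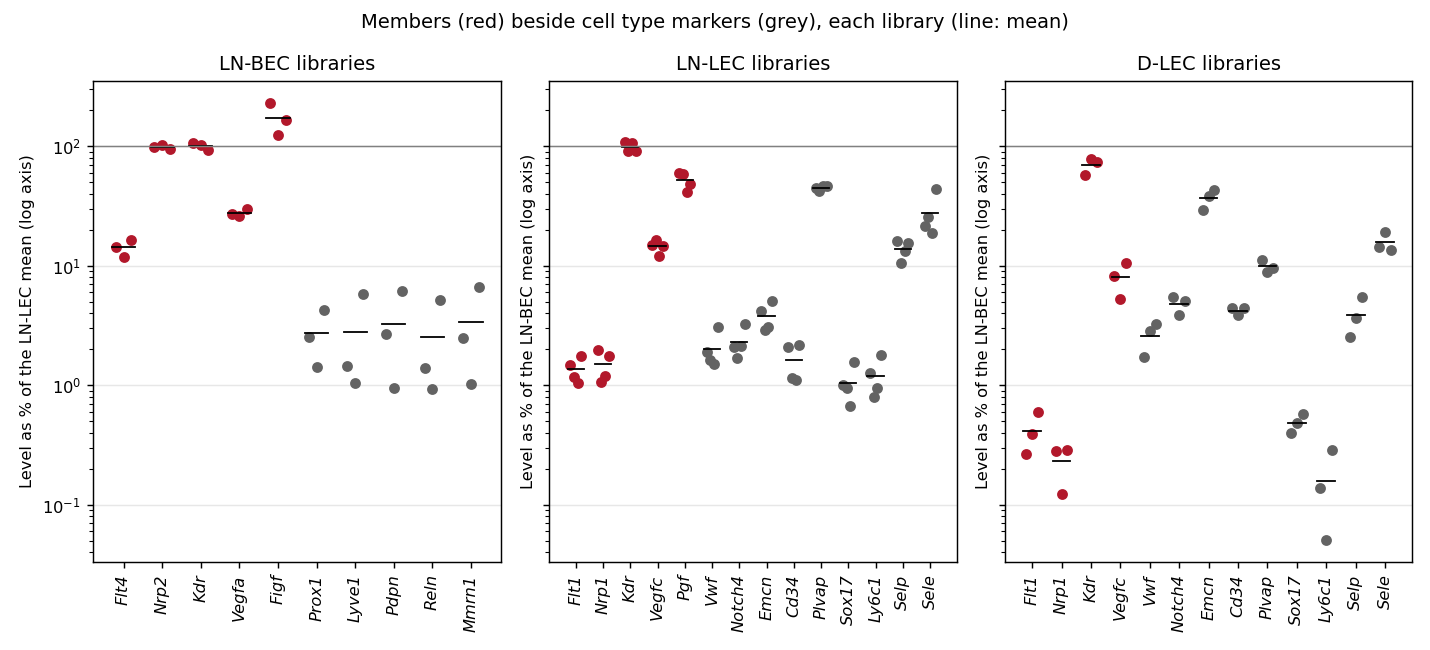
Level of selected VEGF system genes (red) and of LEC or BEC markers (grey) in each library, as a percent of the mean of another population on a log axis, with a line at the mean and a grey line at 100%. Flt4 in LN-BEC (11.8% to 16.5% of LN-LEC) lies above all 5 LEC markers in each LN-BEC library with this reference. With D-LEC as the reference, which came from diaphragm and is not plotted, Flt4 (2.86%) and Prox1 (2.83%) lie together. Flt1 and Nrp1 in LN-LEC (1.36% and 1.49% of LN-BEC on average) lie among Sox17, Ly6c1, Cd34 and Vwf (1.05% to 2.02%). Notch4, Emcn, Selp, Sele and Plvap lie above them, at 2.29% to 45.1%.

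Genes around the VEGF system were taken from 7 lists holding 160 genes. The first list held 13 proteases and cofactors that process or release the ligands. Of these, 3 were called higher in LN-LEC and 3 in D-LEC, 5 were higher in LN-LEC and 2 in LN-BEC, and 5 were higher in D-LEC and 3 in LN-BEC. Among all tested genes the shares called, in the same order, were 24.1% and 21.7%, 19.8% and 18.4%, and 22.5% and 25.6%. The proprotein convertase gene Pcsk6 was at 118 ± 22.7 FPKM in D-LEC, 2.92 ± 0.96 FPKM in LN-LEC and 0.956 ± 0.290 FPKM in LN-BEC, 40.1-fold higher in D-LEC than LN-LEC (adjusted p = 3.3e-07). Its relative Pcsk5 went the other way, 16.7-fold higher in LN-LEC than D-LEC (2.49 ± 0.128 against 0.147 ± 0.033 FPKM, adjusted p = 6.7e-10). Plau, the gene of urokinase, was 16.04-fold higher in D-LEC than LN-LEC (adjusted p = 3.4e-09). Ctsd, the gene of cathepsin D, was at 545 ± 98.1 FPKM in LN-LEC and 4.11-fold higher there than in LN-BEC (adjusted p = 5.7e-08), while the convertase genes Furin and Pcsk7 were 1.38-fold and 1.50-fold higher in LN-BEC (adjusted p = 0.0015 and 3.6e-04). Adamts14 was called higher in LN-LEC and in LN-BEC than in D-LEC, but on 2 to 7 counts in the D-LEC libraries. Its call between LN-BEC and D-LEC (adjusted p = 0.014) was lost without LN-BEC replicate 1, D-LEC replicate 2 or D-LEC replicate 3 (adjusted p = 0.056, 0.057 and 0.057). Chosen after their values were seen, Ccbe1 and Adamts3, which together activate VEGF-C, were low throughout, Ccbe1 at 0.204 to 0.235 FPKM on average with no call and Adamts3 at 0.378 FPKM in LN-LEC, 0.128 FPKM in LN-BEC and 0.550 FPKM in D-LEC, called higher in both lymphatic populations than in LN-BEC.

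The second list held 43 genes of signalling downstream of the receptors. The calls were 14 higher in LN-LEC and 12 in D-LEC, 8 higher in LN-LEC and 13 in LN-BEC, and 12 higher in D-LEC and 16 in LN-BEC. Beside these stand 24.1% and 21.7%, 19.8% and 18.4%, and 22.5% and 25.6% of all tested genes. Fyn, a Src family kinase gene, was at 59.9 ± 4.25 FPKM in D-LEC, 32.8 ± 2.65 FPKM in LN-BEC and 7.77 ± 0.42 FPKM in LN-LEC, 7.70-fold higher in D-LEC and 4.22-fold higher in LN-BEC than LN-LEC (adjusted p = 2.0e-11 and 5.5e-10). Src itself was highest in LN-LEC, at 2.11 ± 0.374 FPKM, 5.71-fold above D-LEC and 7.59-fold above LN-BEC (adjusted p = 1.9e-05 and 6.4e-06). The adaptor genes Shc1 and Shc2 were highest in D-LEC, 6.35-fold and 10.7-fold above LN-BEC (adjusted p = 6.6e-09 and 8.8e-09). Prkcb, a protein kinase C gene, was 15.2-fold and Hspb1, the gene of the small heat shock protein HSP27, 3.12-fold higher in LN-BEC than D-LEC (adjusted p = 4.4e-08 and 6.1e-05).

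Of 27 genes of receptor phosphatases and trafficking, 6 were called higher in LN-LEC and 7 in D-LEC, 7 higher in LN-LEC and 8 in LN-BEC, and 9 higher in D-LEC and 8 in LN-BEC. All tested genes gave 24.1% and 21.7%, 19.8% and 18.4%, and 22.5% and 25.6% in these directions. The caveolin gene Cav1 was lower in LN-LEC (186 ± 32.9 FPKM) than in D-LEC (517 ± 64.6 FPKM, 2.78-fold, adjusted p = 6.1e-07) and LN-BEC (619 ± 43.4 FPKM, 3.33-fold, adjusted p = 1.4e-07). Dab2, an endocytic adaptor gene, was 4.04-fold higher in LN-LEC than LN-BEC (adjusted p = 2.3e-04), and the integrin gene Itgb3 3.14-fold higher (adjusted p = 8.6e-08). Ptprj, the gene of the receptor phosphatase DEP-1, was 3.52-fold higher in LN-BEC than LN-LEC and 11.8-fold higher than in D-LEC (adjusted p = 2.9e-06 and 1.8e-08). Ptpn6, the gene of the phosphatase SHP-1, was 11.99-fold higher in LN-LEC than D-LEC (adjusted p = 7.6e-06), where it had 4 to 14 counts.

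Of 12 class 3 semaphorin and plexin genes, which bind or pair with neuropilins, 3 were called higher in LN-LEC and 1 in D-LEC, 5 higher in LN-LEC and 5 in LN-BEC, and 5 higher in D-LEC and 5 in LN-BEC. The shares of all tested genes were 24.1% and 21.7%, 19.8% and 18.4%, and 22.5% and 25.6%. Sema3a and Sema3d were lymphatic transcripts. Sema3d was at 109 ± 8.68 FPKM in LN-LEC and 64.5 ± 9.35 FPKM in D-LEC against 2.94 ± 2.52 FPKM in LN-BEC, and Sema3a at 33.8 ± 4.53, 17.6 ± 3.33 and 0.895 ± 0.703 FPKM, so that LN-LEC exceeded LN-BEC 37.3-fold and 38.3-fold (adjusted p = 3.8e-04 and 1.5e-04). Sema3f was 5.18-fold higher in D-LEC than LN-LEC (adjusted p = 1.7e-09). Sema3c was 4.55-fold higher in LN-BEC than LN-LEC (adjusted p = 0.0011), and Plxnd1, a plexin gene of blood vessels, 2.79-fold higher in LN-BEC than D-LEC (adjusted p = 5.1e-08). Sema3g was at 0.485 ± 0.083 FPKM in LN-BEC and had 0 to 2 counts in the LN-LEC libraries and 0 to 1 in the D-LEC libraries.

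Of 23 transcripts known to be induced by VEGF in cultured endothelium, 4 were called higher in LN-LEC and 14 in LN-BEC, where 19.8% and 18.4% of all tested genes were called in these directions, with a median log2 fold change (LN-LEC minus LN-BEC) of −1.83 beside −0.01 over all tested genes. Among the 14, Vwf and Sele also stand on the list of 9 BEC markers, all 9 of which were called higher in LN-BEC. Egr1, another of the 14 (log2 fold change −1.94), stands on the list of 10 dissociation-response genes, of which 4 were called higher in LN-BEC. Egr2, Nr4a1, Nr4a2 and Nr4a3, rapidly induced genes like Egr1 but not on that list, are also among the 14. Their log2 fold changes were −1.57, −2.46, −2.40 and −2.60, while Egr3 was not called. The part of the dissociation response in these calls was not tested. Against D-LEC, LN-LEC was higher in 6 and lower in 10, and D-LEC was higher than LN-BEC in 6 and lower in 10. For all tested genes these directions held 24.1% and 21.7%, and 22.5% and 25.6%. Esm1 and Aplnr, both known from sprouting blood vessels, were at 52.2 ± 1.05 and 154 ± 5.36 FPKM in LN-BEC against 0.404 ± 0.158 and 1.63 ± 0.621 FPKM in LN-LEC, differences of 120-fold and 93.7-fold (adjusted p = 1.9e-11 and 1.9e-07). Vcam1, an adhesion molecule gene, went the other way, at 110 ± 9.96 FPKM in LN-LEC, 24.5 ± 3.04 FPKM in LN-BEC and 0.764 ± 0.293 FPKM in D-LEC, 142-fold higher in LN-LEC than D-LEC (adjusted p = 5.5e-10). Unc5b, a netrin receptor gene, was 2.26-fold higher in LN-LEC than LN-BEC (adjusted p = 6.2e-07). Egr1 was 8.65-fold and Dusp5 13.1-fold higher in D-LEC than LN-LEC (adjusted p = 5.2e-04 and 6.7e-04). Egr1 is also among the 10 dissociation-response genes, and Dusp5 had 0 to 4 counts in LN-LEC. Adm, the adrenomedullin gene, was 3.94-fold higher in D-LEC than LN-BEC (adjusted p = 5.3e-04).

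The list of transcription factors with a known part in endothelial identity and receptor gene expression held 20 tested genes. In the comparison of LN-LEC with LN-BEC, 8 were higher in LN-LEC and 10 in LN-BEC, beside 19.8% and 18.4% of all tested genes. In that of LN-LEC with D-LEC, 4 were higher in LN-LEC and 9 in D-LEC, beside 24.1% and 21.7%. In that of D-LEC with LN-BEC, 10 were higher in D-LEC and 8 in LN-BEC, beside 22.5% and 25.6%. Prox1, the master regulator of lymphatic identity, was at 64.2 ± 2.69 FPKM in LN-LEC and 62.2 ± 9.36 FPKM in D-LEC, and Tbx1 at 55.9 ± 3.07 and 53.4 ± 6.73 FPKM and neither was called between the lymphatic populations (log2 fold changes 0.05 and 0.07, adjusted p = 0.91 for both). In LN-BEC they were at 1.76 ± 0.923 and 1.52 ± 1.39 FPKM. Sox17 was a blood endothelial transcript, at 38.9 ± 1.99 FPKM in LN-BEC, 0.409 ± 0.148 FPKM in LN-LEC and 0.188 ± 0.034 FPKM in D-LEC. The Notch target gene Hey1 was at 96.0 ± 6.70 FPKM in D-LEC and 73.9 ± 1.45 FPKM in LN-BEC but 4.22 ± 0.637 FPKM in LN-LEC, 22.6-fold below D-LEC (adjusted p = 6.9e-12). Klf4, a gene induced by flow, was 4.59-fold higher in D-LEC than LN-LEC (adjusted p = 4.2e-06), and Erg, an Ets factor gene, 2.01-fold lower (adjusted p = 1.1e-04). The 10 dissociation-response genes were also all called higher in D-LEC than LN-LEC. The part of that response or of flow in the level of Klf4 was not tested.

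Of 21 hypoxia pathway genes, listed because hypoxia-inducible factors act on the VEGF system, 4 were called higher in LN-LEC and 8 in D-LEC, 3 higher in LN-LEC and 8 in LN-BEC, and 7 higher in D-LEC and 6 in LN-BEC. Among all tested genes these shares were 24.1% and 21.7%, 19.8% and 18.4%, and 22.5% and 25.6%. Epas1, the gene of HIF-2α, was at 293 ± 32.96 FPKM in LN-BEC, 68.3 ± 4.42 FPKM in D-LEC and 48.3 ± 2.56 FPKM in LN-LEC, 6.05-fold higher in LN-BEC than LN-LEC (adjusted p = 2.0e-10). The glucose transporter gene Slc2a1 was 3.70-fold higher in LN-BEC than D-LEC (adjusted p = 1.3e-08). Egln3, a prolyl hydroxylase gene, was 11.1-fold and P4ha1 3.01-fold higher in D-LEC than LN-BEC (adjusted p = 1.1e-07 and 2.2e-07), and Ankrd37 was 11.3-fold higher in D-LEC than LN-LEC (adjusted p = 3.1e-08). Car9 was 5.34-fold and Pdk1 2.43-fold higher in LN-LEC than D-LEC (adjusted p = 3.2e-04 and 1.2e-05). Hif3a was called higher in D-LEC and in LN-BEC than in LN-LEC, where it had 0 to 3 counts. The call between LN-BEC and LN-LEC (adjusted p = 0.034) was lost in 7 of 16 alternative settings (adjusted p = 0.056 to 0.12), among them the fit of these 2 populations alone (0.067) and the fits without LN-BEC replicate 1 or 2, without LN-LEC replicate 2, 3 or 4, and without LN-BEC replicate 3 and LN-LEC replicate 4 together.

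**Figure D5:**
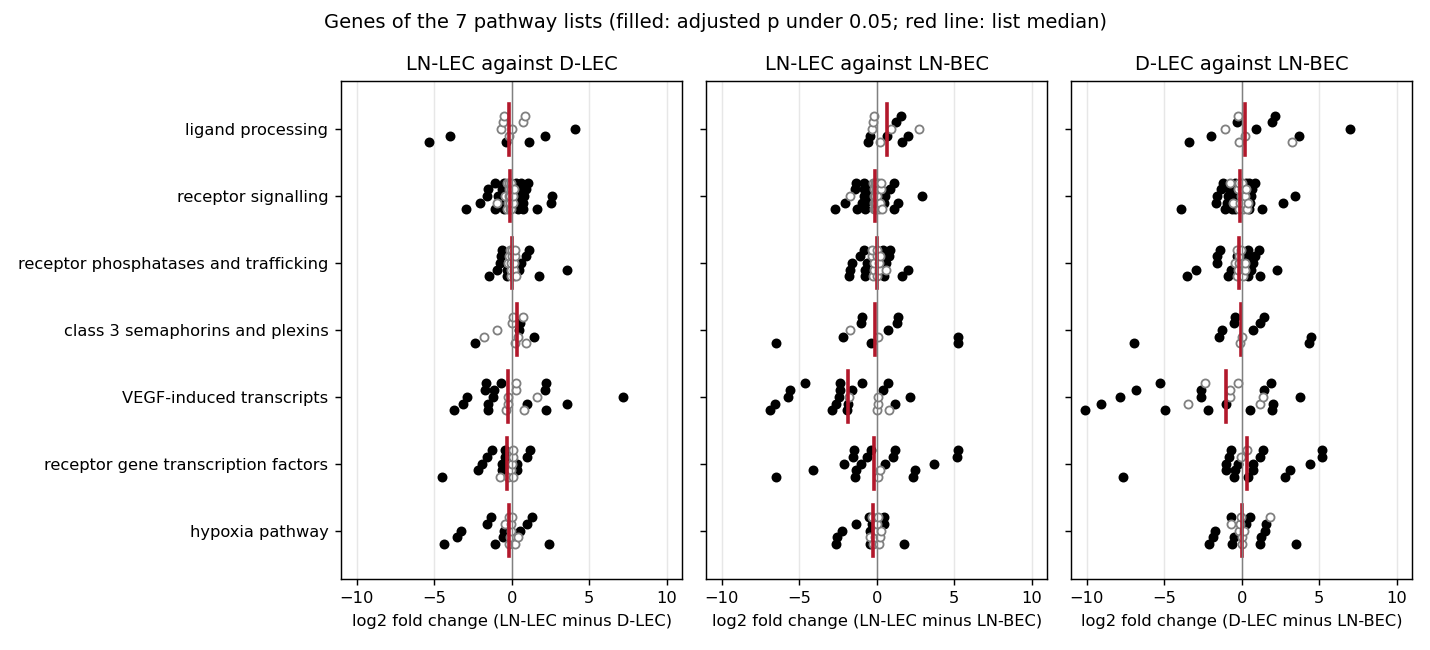
Log2 fold change of every tested gene of the 7 lists in the 3 comparisons, with filled points for an adjusted p under 0.05, open points otherwise and a red line at the median of each list. The list of VEGF-induced transcripts has the median furthest from 0, at −1.83 for LN-LEC minus LN-BEC, and Pcsk6 is the filled point at −5.32 among the ligand processing genes for LN-LEC minus D-LEC.

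The genes whose profile over the 10 libraries was nearest to each of the members described here were found among 10219 tested genes whose normalized counts averaged 100 or more, as the smallest root mean square difference of log2 values after centring each gene on its own mean. Kdr, which varied least, had close neighbours by this measure, the nearest being Rpl7a (0.0747), Rad50 (0.0761) and Tspan31 (0.0786). Flt1 was nearest to Entpd1 (0.220), Jam2 (0.267) and Sox17 (0.326), and Nrp1 to Aplnr (0.352), Ly6a (0.356) and Slc14a1 (0.382), all of them highest in LN-BEC. Flt4 was nearest to Ang (0.186), Prelp (0.200) and Ankrd6 (0.234), and Nrp2 to Btbd3 (0.136), Rhoj (0.142) and Cyb5r3 (0.146). Among the ligands, Vegfa was nearest to Iqsec2 (0.143), Vegfb to Nid1 (0.107), Figf to Agpat9 (0.219) and Pgf to Enkur (0.330). The nearest gene to Pgf was at 31.3 FPKM in D-LEC, 1.29 FPKM in LN-BEC and 0.887 FPKM in LN-LEC.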

How the data were processed

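Fragments were counted on exons of 23284 gene symbols in 10 libraries. The authors aligned read pairs of amplified cDNA to mm9 with STAR, counted pairs with featureCounts version 1.4.4, ignoring strand and leaving out multiply mapping pairs, and deposited raw counts without normalization, beside the exon length of each gene, used here for FPKM. Samples were grouped by their labels, which give no batch or pairing. After 3804 rows of unnamed transcripts were left out, 15330 genes, those whose normalized counts averaged 1 or more in at least 1 population, entered the quasi-likelihood F test of edgeR 4.0.16 (R 4.3.3, robust fit, all 10 libraries, 1 mean per population, TMM factors). Benjamini-Hochberg adjustment was made separately for the 3 comparisons, with calls at an adjusted p under 0.05. The 95% intervals use the t quantile of the quasi-likelihood degrees of freedom. FPKM were counts scaled by exon length and TMM-corrected library size. Ratios were taken within libraries after adding 0.1 FPKM and compared with exact permutation tests (scipy 1.17.1). At the depth of 22429940 to 48906070 counted fragments, 3 counts correspond to 0.0613 to 0.134 CPM, and precision rests on the spread between libraries. The fit was also run on simulated data with far fewer changed genes than were called here, as a check of the code and not of these calls. The 10 genes were set by name, and they, the lists and the marker genes were chosen with earlier results of these data known. Named from each pathway list were genes among the 2 largest absolute log2 fold changes called in each direction of each comparison. Hras was read as Hras1, and the mesothelial marker Muc16 was not used here. Alternatives were DESeq2 1.42.0, its size factors, other filters on low values, a fit of 2 populations alone, each library left out in turn, and 1 FPKM added in ratios. Promoters were read from the mm9 genome sequence. The nearest profile to Vegfc is not reported here.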

Additional observations from a re-analysis of the deposited data

Results flagged for a closer look

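In the LN-LEC, Vegfb was at 37.2 FPKM in replicate 2 and at most 33.8 FPKM in the other 3 libraries. The gap was 0.833 of the whole range of the group, just above Dixon's 95% critical value for 4 samples. Of the 15 groups of 4 LN-LEC values examined in this way (10 genes and 5 ratios) it was the 1 that passed, and chance marks about 1 in 20 such groups.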

How the results depend on the processing

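No paired analysis was possible because the labels number no replicates across populations and give no shared batch, day or animals. Over 16 alternative settings per comparison, the member log2 fold changes kept direction and call in 467 values, lost the call in 6 and turned sign in 7. The lost calls were those of Figf and Pgf between LN-LEC and LN-BEC, so that the number of members higher in LN-BEC fell from 5 to 3 without LN-BEC replicate 1 and without both LN-BEC replicate 3 and LN-LEC replicate 4. The sign changes were in uncalled values of LN-LEC minus LN-BEC. Kdr gave 0.04, 0.0024, 0.03 and 0.03 without LN-BEC replicate 1, LN-BEC replicate 2, LN-LEC replicate 2 and LN-LEC replicate 4. Nrp2 gave −0.00049 with a minimum of 1 FPKM, −0.03 without LN-LEC replicate 3 and −0.02 without LN-BEC replicate 3. With each library left out in turn, Kdr ran from −0.0725 (without LN-BEC replicate 3) to 0.0421 and Nrp2 from −0.0314 to 0.0608 (without LN-LEC replicate 4). With 1 FPKM added in place of 0.1, the log2 ratio of Flt4 to Flt1 differed by −2.92 for LN-LEC minus D-LEC, 7.98 for LN-LEC minus LN-BEC and 10.9 for D-LEC minus LN-BEC, Nrp2 to Nrp1 by −3.28 for LN-LEC minus D-LEC and 9.05 for D-LEC minus LN-BEC, Vegfc to Vegfa by −4.02 for LN-LEC minus LN-BEC, and Vegfb to Vegfa by −2.29 for LN-LEC minus D-LEC and 1.54 for D-LEC minus LN-BEC, as an added constant shrinks ratios of low genes. With 0.1 FPKM added, Flt4 to Flt1 differed by −3.77 for LN-LEC minus D-LEC, 8.91 for LN-LEC minus LN-BEC and 12.7 for D-LEC minus LN-BEC. Vegfb to Vegfa then differed by 1.82 for D-LEC minus LN-BEC. Of the list counts 664 were within 1.5 times of the value given and 8 were not. Semaphorins and plexins higher in LN-LEC than D-LEC went from 3 to 5 in a fit of the 2 populations alone and without LN-BEC replicate 2, those higher in D-LEC from 1 to 2 with DESeq2 and without D-LEC replicate 2, those higher in LN-LEC than LN-BEC from 5 to 3 with a minimum of 1 FPKM, and those higher in LN-BEC than D-LEC from 5 to 3 without LN-BEC replicate 1. Hypoxia genes higher in LN-BEC than LN-LEC went from 8 to 5 without LN-LEC replicate 2, and ligand processing genes higher in LN-BEC than D-LEC from 3 to 1 without D-LEC replicate 3. Of the named pathway genes 1307 values kept their call and 12 lost it, 7 for Hif3a between LN-LEC and LN-BEC, 3 for Adamts14 between D-LEC and LN-BEC and 2 for Sema3b between LN-LEC and D-LEC. Apart from the added constant, the cause of these changes was not tested.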
